A study of Mus musculus with 12 samples.

Results

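The transcription factor Creb5 and 9 of its CREB and ATF relatives were followed in limb mesenchyme of E14.5 mouse embryos. The 10 genes were taken by name from a table of 54532 genes: Creb5, Atf2 and Atf7, then Creb1, Crem and Atf1, then Creb3, Creb3l1 and Creb3l2, and the coactivator Crebbp. All 10 were found in the table and all 10 were abundant enough to be tested. RNA sequencing covered 12 libraries, 6 from iCreb5 cells and 6 from tdTomato cells. In iCreb5 embryos, Cre driven by Prrx1, a gene of early limb mesenchyme, had removed a stop cassette at Rosa26 and so switched on bovine Creb5 with an HA tag, together with GFP. In tdTomato embryos the same Cre had switched on a red fluorescent protein from Rosa26 in place of Creb5. Both groups therefore carried Prrx1-Cre and an opened Rosa26 allele, came from the same matings, and were sorted by fluorescence. The labels place 3 libraries of each group in litter 3 and 1 of each group in litters 4, 5 and 6. Because every litter also has a batch label of its own, effects of litter and of batch cannot be told apart. The design text counts 6 litters, against the 4 of the labels, and the sources used here do not say whether a library holds 1 embryo or several.

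Proteins of these families bind DNA as dimers through a basic region and a leucine zipper, most of them at the cAMP response element (CRE), TGACGTCA, or at its shorter core, TGACG. Creb5 forms a group with Atf2 and Atf7, which are activated by the stress kinases JNK and p38 and pair with Jun proteins. Creb1, Crem and Atf1 form a second group, which protein kinase A phosphorylates when cAMP is high, after which Crebbp, a histone acetyltransferase, is recruited. Creb3, Creb3l1 and Creb3l2 sit in the membrane of the endoplasmic reticulum and reach the nucleus once Golgi proteases have cut them free. In mice, Creb5 marks the forming joints and articular cartilage, Creb3l1 acts in osteoblasts and Creb3l2 acts in secreting chondrocytes.

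Depth, recovered from the deposited values, was 21.6 to 49.2 M reads in iCreb5 libraries and 9.02 to 53.3 M reads in tdTomato libraries. In these libraries 3 reads were worth 1.48 to 8.38 normalised counts, far below the level of any of the 10 genes. Of 16733 genes tested with limma across all 12 libraries, 6.72% passed an adjusted p of 0.05, with 3.87% of the tested genes higher in iCreb5 and 2.85% lower. The cell types in the libraries differed as well. Of 16 leukocyte markers 15 were called higher in iCreb5, and their summed level was 2808 to 13018 in iCreb5 libraries against 729 to 1246 in tdTomato libraries. Endothelial markers were called higher in 5 of 8 cases, with sums of 1479 to 4115 in iCreb5 against 1121 to 1688 in tdTomato. All 8 chondrocyte markers were called lower, with sums of 70518 to 102784 in iCreb5 against 136904 to 333241 in tdTomato. The limb mesenchyme marker Prrx1 was present throughout, and the 10 markers of that list summed to 97516 to 160166 in iCreb5 against 118376 to 194718 in tdTomato, with 1 of 10, Tbx4, called higher. Markers of skeletal muscle, epidermis and red cells had 0 calls with limma, edgeR or DESeq2 and 0 at an unadjusted limma p under 0.05. Of 5 tested Schwann cell markers 1, Sox10, was called lower, 2 were lower at an unadjusted limma p under 0.05, and all 5 changes were negative. The Schwann cell list summed to 131 to 347 in iCreb5 against 340 to 447 in tdTomato. No list had a marker at 0 in every library. In such bulk samples, fewer cells of a type and less RNA per cell cannot be told apart. The part of these cell types in the values of the 10 genes was not tested.

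Creb5 was the 1 gene of the 10 called, against 6.72% of all genes tested, and it rose. The iCreb5 libraries had a lowest value of 2555, a median of 2757 and a highest value of 3162 normalised counts, against 1470 to 2217 with a median of 1802 in tdTomato libraries. Every iCreb5 library lay above every tdTomato library. Mean levels were 2799 ± 214 in iCreb5 and 1803 ± 299 in tdTomato (SD, n = 6 each), a log2 change of 0.65 ± 0.12 (SE) or 1.57-fold with a 95% interval of 1.32 to 1.86, and an adjusted p of 0.00219 by limma. Groups that did not overlap occurred in 4.75% of all genes tested, and Creb5 was the only one of the 10 of which this held. The tdTomato libraries thus carried substantial Creb5 RNA of their own. Reads of the bovine transgene and of mouse Creb5 cannot be told apart in a value per gene, because the sources used here do not describe the handling of transgene reads. The rise goes with the labels in every library, and how far it comes from the transgene or from the mouse gene was not tested.

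The rise had the same direction in each litter. Creb5 was 1.71-fold higher in iCreb5 in litter 3, 1.43-fold in litter 4, 1.57-fold in litter 5 and 1.31-fold in litter 6. In litter 3 alone, with 3 libraries a group, the log2 change was 0.78 and the adjusted p 0.0188 by limma. In litters 4 to 6, with litter as a term, it was 0.52 and the adjusted p 0.0501, so the call ended there. The difference between these sets of litters was 0.26 on the log2 scale with an unadjusted p of 0.257 in the limma interaction. Without iCreb5 5 and 6, the libraries with the most leukocyte signal, the change was 0.68 (adjusted p 0.00780 by limma). Leaving out each library in turn gave 0.59 to 0.71, with adjusted p by limma between 0.00159 and 0.00740.

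**Figure D1:**
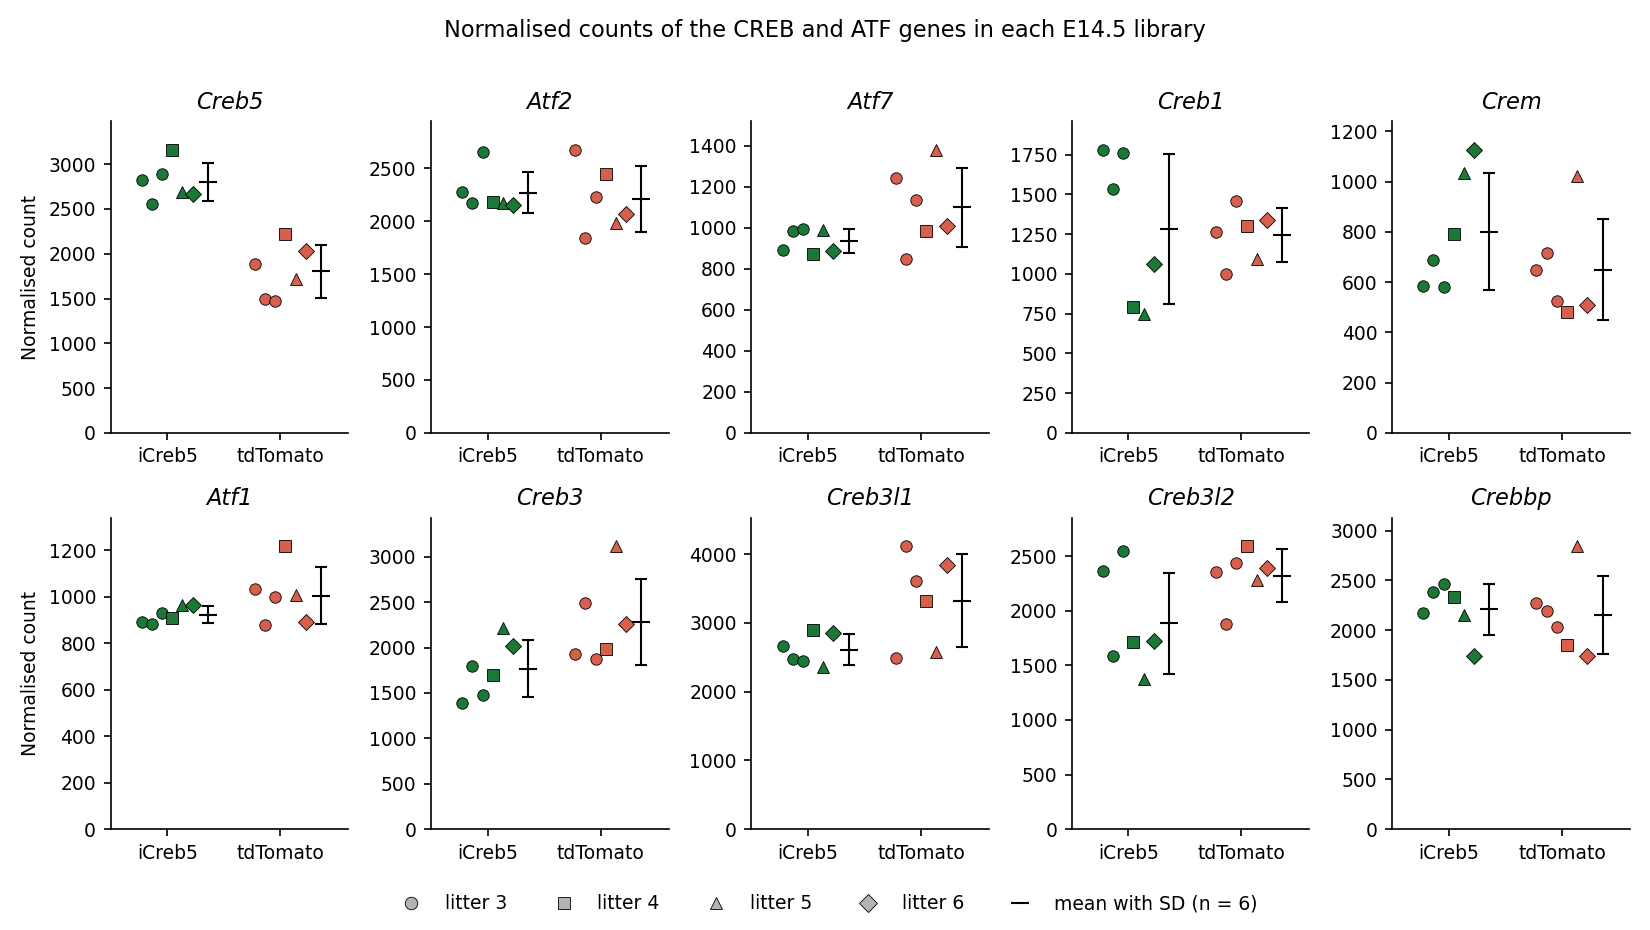
Normalised count (vertical axis) of each of the 10 genes in every library, with iCreb5 left of tdTomato; points are libraries, their shape gives the litter, and bars give the mean ± SD of 6. Creb5 is the 1 panel in which the groups do not overlap, 2555 to 3162 in iCreb5 against 1470 to 2217 in tdTomato.

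Mouse Creb5 lies on chromosome 6 at 53287270 to 53700376 on the plus strand of GRCm38 (the mm10 build), and GENCODE M21 gives it 15 transcripts. RefSeq gives it start sites in 2 windows, each with 250 bases before and 50 after a start. RefSeq windows (GRCm38.p6) were found for 8 of the 10 genes, 9 windows in all, and Creb3l1 and Crem had no entry. They are shown for Creb5, whose level differed, and for the other genes with a match to the CRE core. Each is 5′ to 3′ on the gene's own strand, in lower case. Matches to TGACGTCA or, where that was absent, to TGACG or its reverse complement CGTCA are in capitals. The Creb5 windows are chr6:53287053-53287352 and chr6:53573124-53573423 on the plus strand, the Atf1 window is chr15:100227609-100227908 on the plus strand, and the Creb3l2 window is chr6:37442099-37442398 on the minus strand.
Creb5, upstream start: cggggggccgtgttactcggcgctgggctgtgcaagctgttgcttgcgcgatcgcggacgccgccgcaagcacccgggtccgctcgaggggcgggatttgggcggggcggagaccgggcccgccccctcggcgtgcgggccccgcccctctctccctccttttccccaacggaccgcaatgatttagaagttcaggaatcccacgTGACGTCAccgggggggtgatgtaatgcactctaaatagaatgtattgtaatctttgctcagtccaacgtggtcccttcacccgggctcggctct
Creb5, downstream start: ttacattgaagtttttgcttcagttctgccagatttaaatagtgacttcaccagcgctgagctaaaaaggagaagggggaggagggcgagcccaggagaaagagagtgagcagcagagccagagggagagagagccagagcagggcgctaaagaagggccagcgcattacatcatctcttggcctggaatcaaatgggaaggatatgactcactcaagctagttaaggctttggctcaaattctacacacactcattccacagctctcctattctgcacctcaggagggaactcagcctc
Atf1: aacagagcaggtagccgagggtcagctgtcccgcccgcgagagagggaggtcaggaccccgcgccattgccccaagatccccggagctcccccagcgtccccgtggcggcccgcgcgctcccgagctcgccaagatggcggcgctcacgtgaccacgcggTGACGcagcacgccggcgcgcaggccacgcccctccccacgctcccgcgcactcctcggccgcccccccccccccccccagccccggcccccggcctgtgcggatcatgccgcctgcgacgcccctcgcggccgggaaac
Creb3l2: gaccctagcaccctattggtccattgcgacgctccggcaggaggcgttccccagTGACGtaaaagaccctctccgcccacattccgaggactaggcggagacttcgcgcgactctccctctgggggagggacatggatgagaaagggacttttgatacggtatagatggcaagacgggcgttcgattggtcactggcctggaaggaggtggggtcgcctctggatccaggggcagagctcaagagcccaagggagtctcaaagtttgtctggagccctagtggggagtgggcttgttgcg

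The upstream Creb5 window held a full CRE from base -45 to base -38, counted back from the start. It was the only 1 of the 9 windows with the full site, a palindrome that reads TGACGTCA on both strands and holds the core on both. Among all 32851 RefSeq windows of the same length, 588 or 1.79% held it. The core, searched on both strands as TGACG or CGTCA, was in 3 of the 9 windows and in 20.8% of all windows. Outside Creb5 it was at -90 to -86 of Atf1 and at -196 to -192 of Creb3l2. The downstream Creb5 window had neither form. These are letter matches, with no measure of binding in the data.

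The other genes of the Creb5 group had no call. Atf2, activated by JNK and p38, had 2155 to 2657 normalised counts with a median of 2183 in iCreb5, against 1840 to 2677 with a median of 2151 in tdTomato, and the groups overlapped throughout. Its log2 change was 0.05 ± 0.11 (SE; adjusted p 0.879 by limma), with a 95% fold interval of 0.88 to 1.21, and it was -0.0034 without tdTomato 3b. Atf7, the closest relative of Atf2, had 873 to 993 with a median of 938 in iCreb5 and 848 to 1380 with a median of 1072 in tdTomato. The iCreb5 values all lay within the range of tdTomato. The log2 change of Atf7 was -0.22 ± 0.12 (SE; adjusted p 0.389 by limma). Of the 31-base words in Atf7 transcripts 12.9% also occur in other genes, mostly in the overlapping Gm28047, so its value is less certain; for Creb5 the share was 0.875%, with 5 words in another of the 10 genes.

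Creb5 had a larger share of its group in iCreb5 cells. Per kilobase of each gene's longest coding transcript, Creb5 was 32.2 to 38.4% of the summed Creb5, Atf2 and Atf7 level in iCreb5 libraries, against 21.2 to 28.9% in tdTomato libraries. The ranges did not overlap. The share is computed from the Creb5 values already given, so it restates their rise beside Atf2 and Atf7 and is no separate result. The means were 34.5 ± 2.13% in iCreb5 and 25.1 ± 2.94% in tdTomato (SD, n = 6 each), a difference of 9.42 percentage points, given as a description with no test. The difference was 7.27 points per kilobase of all annotated exons and 11.4 points with no division by length. If reads of the bovine transgene are counted under Creb5, the mouse lengths need not apply to them. The Creb5 share per kilobase in iCreb5 is therefore less certain than that in tdTomato. The summed level of the group was 1024 ± 60.7 per kilobase in iCreb5 and 906 ± 107 in tdTomato, with overlapping ranges.

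**Figure D2:**
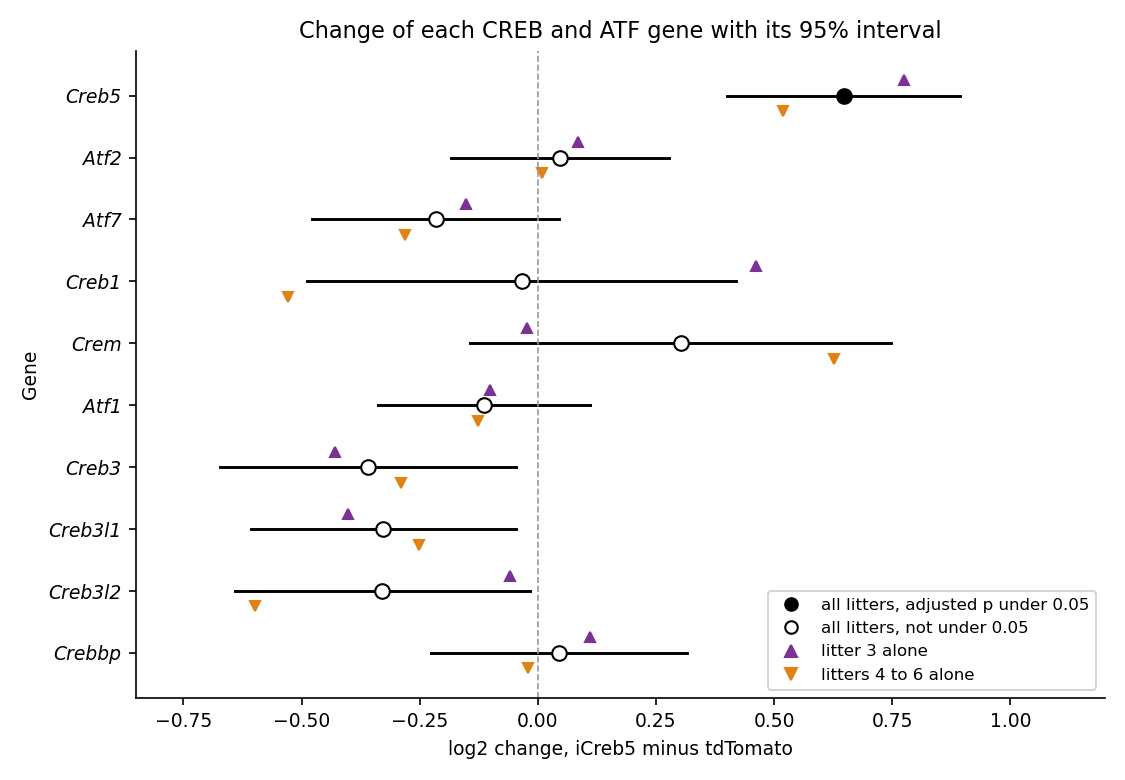
Log2 change, iCreb5 minus tdTomato (horizontal axis), of each of the 10 genes; points are limma estimates over 6 libraries a group and bars their 95% intervals. The interval of Creb5 runs from 0.40 to 0.89, and it is the 1 gene past an adjusted p of 0.05.

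Creb1, Crem and Atf1, the genes that answer to cAMP, had no call either, but they differed in how much they varied. Creb1 had values of 746 to 1780 with a median of 1300.0 in iCreb5 libraries, against 997 to 1460 with a median of 1283 in tdTomato libraries. Of the iCreb5 libraries, 3 lay above the highest and 2 below the lowest tdTomato library. The means were 1280.0 ± 472 in iCreb5 and 1242 ± 169 in tdTomato (SD, n = 6 each), with a log2 change of -0.03 ± 0.21 (SE; adjusted p 0.960 by limma). The 3 high iCreb5 libraries were those of litter 3, at 1536 to 1780, and the other 3 were at 746 to 1064. In tdTomato the corresponding means were 1240 in litter 3 and 1243 in litters 4 to 6, so no such split was seen there. Within litters it was 0.46 in litter 3 and -0.53 in litters 4 to 6, and neither passed limma's threshold (adjusted p 0.171 and 0.0821). The difference between the litter sets was 0.99 on the log2 scale, with an unadjusted p of 0.00199 and an adjusted p of 0.802 in the limma interaction. No gene passed that interaction after adjustment, which was run with limma only, and 6.05% of all genes had an unadjusted p under 0.05, so 1 of 10 here is near the background. The sign of the Creb1 change also turned without any 1 of iCreb5 4a (0.086), iCreb5 5 (0.10), iCreb5 6 (0.0016) or tdTomato 3c (0.015).

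Crem, whose gene also encodes the inducible repressor ICER, had 580 to 1127 normalised counts with a median of 739 in iCreb5, against 482 to 1021 with a median of 587 in tdTomato. The groups overlapped, and iCreb5 5 and 6, at 1036 and 1127, were the 2 libraries above every tdTomato library. The log2 change was 0.30 ± 0.21 (SE; adjusted p 0.505 by limma). It was -0.02 in litter 3 and 0.63 in litters 4 to 6, with fold values of 0.98 in litter 3, 1.64 in litter 4, 1.01 in litter 5 and 2.22 in litter 6. Leukocyte marker sums were highest in the same iCreb5 libraries, 8151 in iCreb5 5 and 13018 in iCreb5 6. The one tdTomato library with a high Crem value, tdTomato 5b at 1021, had a leukocyte sum of 1146, within the tdTomato range, and the highest red cell sum, 38564. Red cell sums were also high in iCreb5 5 and 6, at 29417 and 26772 against 4661 to 8581 in the other iCreb5 libraries. The tdTomato 6d library had a red cell sum of 22743 and Crem at 508. The part of these cells in the Crem values was not tested. Crem overlaps the pseudogene Gm6225, which holds 6.57% of its words.

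Atf1, which pairs with Creb1, varied least of the 10 among iCreb5 libraries (coefficient of variation 3.88%), with 883 to 965 and a median of 920 in iCreb5, against 877 to 1219 with a median of 1004 in tdTomato. All iCreb5 values lay within the range of tdTomato. The log2 change was -0.11 ± 0.11 (SE; adjusted p 0.646 by limma) and the 95% fold interval 0.79 to 1.08. The processed copy Atf1-ps shares most of the 16.9% of Atf1 words found in other genes. Summed per kilobase, the 3 genes were at 817 ± 60.1 in iCreb5 and 795 ± 70.8 in tdTomato. Crem made up 33.2 ± 7.75% of this sum in iCreb5 and 27.7 ± 6.98% in tdTomato, with overlapping ranges.

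The 3 membrane-bound genes all had lower means in iCreb5, and none passed the adjusted threshold. Creb3 had values of 1392 to 2216 with a median of 1749 in iCreb5, against 1876 to 3117 with a median of 2120.0 in tdTomato. In iCreb5, 4 of 6 libraries lay below the lowest tdTomato library. Its log2 change was -0.36 ± 0.15 (SE; unadjusted p 0.0268, adjusted p 0.193 by limma; adjusted p 0.0515 with litter as a block). Creb3 shares 20.8% of its exon bases with Tln1 and Gba2, which run on the opposite strand, and the sources used here do not say whether strand was used in the counting. Creb3l1 had 2356 to 2895 with a median of 2567 in iCreb5 and 2488 to 4117 with a median of 3464 in tdTomato. In iCreb5, 3 libraries lay below the lowest tdTomato value. Its log2 change was -0.33 ± 0.13 (SE; unadjusted p 0.0248, adjusted p 0.184 by limma).

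The low tdTomato values of Creb3l1 came from 2 libraries, tdTomato 3a at 2488 and tdTomato 5b at 2570, and the other 4 were at 3319 to 4117. Those 2 libraries also had the lowest chondrocyte marker sums of the tdTomato group, 178509 and 136904, against 245758 to 333241 in the rest, and the lowest depth of all 12, 9.02 and 18.4 M reads. Without both, the log2 change was -0.51 and the adjusted p 0.00744 by limma. Creb3l1 was then called together with Creb5, 2 of the 10 against 5.87% of all genes tested. Since the libraries left out hold the lowest Creb3l1 values of their group, the larger change follows from leaving them out, and the call is given as a description only. The part of chondrocyte RNA and of depth was not tested.

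Creb3l2 had 1370 to 2548 with a median of 1720 in iCreb5, against 1881 to 2592 with a median of 2369 in tdTomato. In iCreb5, 4 libraries lay below every tdTomato library and 2, both of litter 3, lay within their range. The log2 change was -0.33 ± 0.15 (SE; unadjusted p 0.0398, adjusted p 0.241 by limma). It was -0.06 in litter 3 and -0.60 in litters 4 to 6, where it passed the threshold with an adjusted p of 0.0327 by limma. The difference between the litter sets had an unadjusted p of 0.0608 and an adjusted p of 0.826 in the limma interaction. In litters 4 to 6 alone, Creb3l2 and not Creb5 was thus the 1 gene called, with a background of 4.11% of all genes.

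Summed per kilobase, the membrane-bound genes were at 2208 ± 129 in iCreb5 and 2813 ± 304 in tdTomato. The ranges overlapped, 2082 to 2410 in iCreb5 against 2313 to 3171 in tdTomato. Creb3l1 held much the same share of this sum, 45.5 ± 3.43% in iCreb5 and 45.3 ± 6.77% in tdTomato. Crebbp, the acetyltransferase that phosphorylated Creb1 recruits, had 1743 to 2460 with a median of 2256 in iCreb5, against 1745 to 2846 with a median of 2114 in tdTomato. The groups overlapped. Its log2 change was 0.04 ± 0.13 (SE; adjusted p 0.908 by limma; fold interval 0.85 to 1.24), and -0.01 without tdTomato 6d.

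Over the 10 genes, 1 was called higher, 0 lower and 9 were not called. With edgeR, which called 6.65% of all genes, with DESeq2 (9.78%) and with litter as a block in limma (9.48%), Creb5 was again the 1 call and 0 were lower, and 3 genes, all of the Creb3 group, were lower at an unadjusted limma p under 0.05, which 8.27% of all genes tested were. The median log2 change of the 10 was -0.07, against 0.00 over all genes tested, with 4 positive and 6 negative values.

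The order of the levels changed little between the groups. Per kilobase of the longest coding transcript, the mean level in iCreb5 ran from Creb3l1 (1003 ± 86.3) and Creb3 (938 ± 167) through Atf2 (539 ± 46.1), Atf1 (391 ± 15.2), Creb5 (353 ± 27.0), Crem (273 ± 79.3), Creb3l2 (266 ± 65.4), Crebbp (204 ± 23.8) and Creb1 (153 ± 56.4) to Atf7 (131 ± 8.18). In tdTomato it ran from Creb3l1 (1277 ± 258) and Creb3 (1208 ± 251) through Atf2 (525 ± 73.9), Atf1 (425 ± 52.0), Creb3l2 (328 ± 33.9), Creb5 (228 ± 37.8), Crem (222 ± 69.2), Crebbp (199 ± 36.2) and Atf7 (154 ± 26.9) to Creb1 (148 ± 20.2). In iCreb5 the steps from Creb3 to Atf2 and from Atf2 to Atf1 exceeded 1 SD of both genes, and the other neighbours overlapped within their SD. In tdTomato the steps from Creb3 to Atf2, from Atf1 to Creb3l2 and from Creb3l2 to Creb5 did so. Creb5 stood at place 5 in iCreb5 and at place 6 in tdTomato. This place depends on the length used, because the annotated exons of Creb5 add up to 25021 bases and its longest coding transcript to 7917. Per kilobase of all exons Creb5 stood at place 8 in iCreb5 (112) and at place 10 in tdTomato (72.1). Both are mouse lengths, which need not apply to transgene reads, so the place of Creb5 in iCreb5 is less certain.

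**Figure D3:**
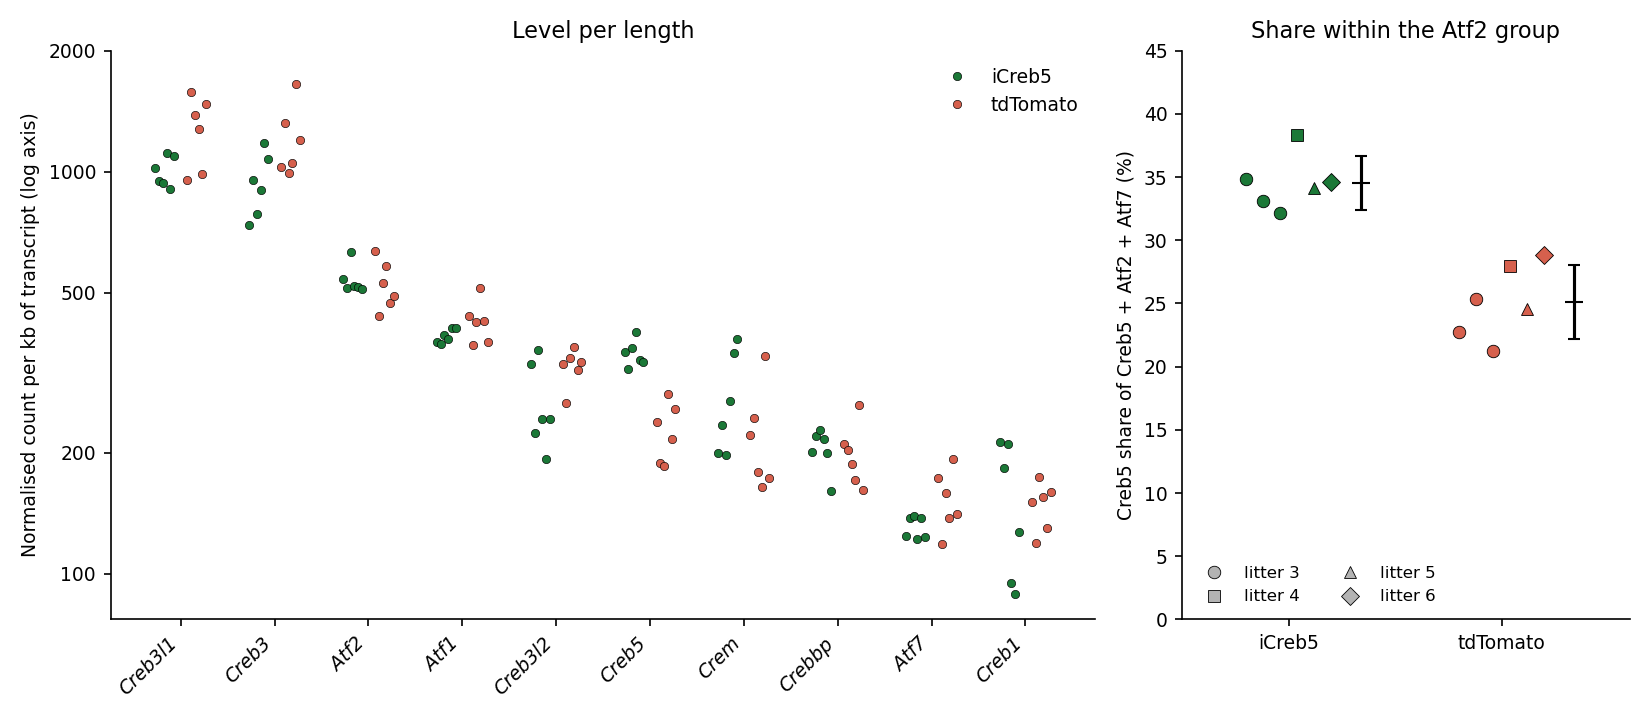
Left, normalised count per kilobase of the longest coding transcript (log axis) of the 10 genes, a point per library, iCreb5 left of tdTomato for each gene; right, the share of Creb5 in the summed level of Creb5, Atf2 and Atf7 (percent), a point per library shaped by litter, with mean ± SD of 6. The Creb5 share is 32.2 to 38.4% in iCreb5 against 21.2 to 28.9% in tdTomato.

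Genes that work with these factors were read from 7 textbook lists that hold 118 genes, some of them in more than 1 list. Of the 112 tested, limma called 5 or 4.46%, 3 higher and 2 lower, against 6.72% of all genes tested, so the lists held no more calls than the background. Among 14 tested of 15 other CREB and ATF genes with a leucine zipper, 0 were called by limma, edgeR or DESeq2. Of them, 1 had an unadjusted limma p under 0.05, against 18.2% of all genes tested. The median log2 change of the list was -0.09. The most abundant were Atf4, the effector of the integrated stress response, at 4219 ± 1187 in iCreb5 and 5098 ± 1439 in tdTomato, and Atf6b, a membrane-bound stress factor, at 3242 ± 413 in iCreb5 and 2713 ± 469 in tdTomato.

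Of 18 CREB coactivators and kinases, 2 were called lower and 0 higher by limma (2.85% and 3.87% of all genes tested), with a median log2 change of 0.02. At an unadjusted limma p under 0.05, 4 were lower and 1 higher. Of all genes tested, 18.2% had such a p in either direction and 8.27% were lower. EdgeR called 1 lower and DESeq2 called 2, and neither called any higher. Camk4, a calcium-dependent kinase that phosphorylates Creb1, had 254 to 354 normalised counts with a median of 302 in iCreb5, against 444 to 585 with a median of 528 in tdTomato. The groups did not overlap. The log2 change of Camk4 was -0.78 ± 0.13 (SE; adjusted p 0.00155 by limma), and in litter 3 alone it was -0.71 with an adjusted p of 0.0663. Camk1d, a kinase of the same family, had 70.1 to 259 with a median of 185 in iCreb5 and 217 to 354 with a median of 344 in tdTomato, and 5 of 6 iCreb5 libraries lay below the lowest tdTomato library. Its log2 change was -0.96 ± 0.27 (SE; adjusted p 0.0397 by limma). In litter 3 alone the change was -0.85 (adjusted p 0.325 by limma) and in litters 4 to 6 it was -1.08 (0.0404). Without tdTomato 3a and 5b the adjusted p was 0.147 by limma. The Camk1d call was lost without any 1 of iCreb5 3a, 3b, 4a or 6 or of tdTomato 3a, 3c, 4a, 5b or 6d, with adjusted p by limma between 0.0532 and 0.0919, and with edgeR (0.0542). Camk1 and Camk2d, the most abundant of this list without a call, had log2 changes of 0.11 ± 0.11 and 0.05 ± 0.11 (SE).

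Of 28 tested of 30 genes of cAMP and protein kinase A, 2 were called higher and 0 lower by limma (3.87% and 2.85% of all genes tested), and both encode enzymes that break down cAMP. The median log2 change was 0.10. At an unadjusted limma p under 0.05, 8 were higher and 2 lower. Of 16733 genes tested, 3046 (18.2%) had such a p, of which 1384 (8.27% of all) were lower and the rest higher. The 8 of 28 higher genes thus exceeded even the share of all genes in either direction, while the 2 lower genes did not exceed the share lower. Whether this goes beyond chance was not tested. EdgeR called 2 higher and 0 lower, and DESeq2 called 3 higher and 1 lower. Pde3b had 586 to 1426 with a median of 900 in iCreb5, against 444 to 582 with a median of 553 in tdTomato, so that no tdTomato library reached an iCreb5 one. The Pde3b log2 change was 0.79 ± 0.18 (SE; adjusted p 0.0116 by limma), 1.11 in litter 3 and 0.47 in litters 4 to 6, where the adjusted p was 0.157. Pde7a had 1259 to 2022 with a median of 1767 in iCreb5, against 1065 to 1406 with a median of 1159 in tdTomato, with 4 of 6 iCreb5 libraries above every tdTomato library. Its log2 change was 0.49 ± 0.13 (SE; adjusted p 0.0348 by limma). In litter 3 alone the change was 0.48 (adjusted p 0.185 by limma) and in litters 4 to 6 it was 0.50 (0.0960), with a call in neither. The Pde7a call was lost without any 1 of iCreb5 3a, 3c, 4a or 6 or of tdTomato 3a, 3b, 4a, 5b or 6d (adjusted p by limma 0.0531 to 0.0864). Gnas, the stimulatory G protein subunit, was at 73173 ± 5904 in iCreb5 and 86212 ± 7041 in tdTomato without a call. Prkar1a, a regulatory subunit of protein kinase A, averaged 14036 ± 270.2 in iCreb5 and 14036 ± 654 in tdTomato.

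Among 21 tested of 24 genes known to answer to cAMP, 1 was called higher by limma, against 3.87% of all genes tested, with a median log2 change of 0.28. At an unadjusted limma p under 0.05, 6 were higher and 0 lower. Of 16733 genes tested, 3046 (18.2%) had such a p, of which 1384 (8.27% of all) were lower and the rest higher. The 6 of 21 higher genes thus exceeded even the share of all genes in either direction. Whether this goes beyond chance was not tested. EdgeR and DESeq2 each called 1 higher and 0 lower. In litters 4 to 6 alone limma called 3 higher, where 4.11% of all genes were called in either direction. The 1 gene called by limma over all litters was Nfil3, a leucine zipper repressor. Nfil3 was at 1017 to 2107 with a median of 1377 in iCreb5, against 641 to 1270 with a median of 932 in tdTomato. The groups overlapped, with 4 of 6 iCreb5 libraries above every tdTomato library. The log2 change was 0.67 ± 0.19 (SE; adjusted p 0.0439 by limma). It was 0.45 without iCreb5 5 and 6 (adjusted p 0.161 by limma), and the call was also lost without any 1 of iCreb5 3a, 3c, 4a, 5 or 6 or of tdTomato 3a, 3b, 3c, 4a or 6d (0.0560 to 0.101). Egr1 and Fos, immediate early genes of this list, varied widely, with Fos at 15918 ± 9373 in iCreb5 and 11175 ± 1954 in tdTomato, and their log2 changes of 0.17 ± 0.21 and 0.33 ± 0.29 (SE) had no call.

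The 17 JNK and p38 pathway genes that act on the Atf2 group had 0 calls with limma and edgeR and 1 lower call with DESeq2. At an unadjusted limma p under 0.05 there were 2, against 18.2% of all genes tested. The median log2 change of the list was -0.03. Dusp1, a phosphatase of these kinases, had no call over all litters, with a log2 change of 0.55 ± 0.23 (SE; adjusted p 0.197 by limma). Its change was 0.05 in litter 3 and 1.05 in litters 4 to 6, where the adjusted p was 0.00739 by limma. With litter as a block and litter 3 averaged, Dusp1 was also called, at 0.80 (adjusted p 0.0411 by limma). Map2k3, an activator of p38, was at 2971 ± 290.5 in iCreb5 and 2952 ± 295 in tdTomato. The 7 Jun and Fos genes, partners of the Atf2 group, had 0 calls over all litters with limma, edgeR and DESeq2. At an unadjusted limma p under 0.05 there were 0, against 18.2% of all genes tested. In litters 4 to 6 alone limma called 1 of the 7 higher, where 4.11% of all genes were called in either direction. Jun was at 11446 ± 2274 in iCreb5 and 10588 ± 1801 in tdTomato. The 14 genes that process the Creb3 group or serve as its secretory targets had 0 calls with the same 3 tools. At an unadjusted limma p under 0.05, 2 were lower and 0 higher, against 8.27% of all genes tested lower. The median of this list was -0.07, with 10 negative and 4 positive changes. Hspa5, the chaperone BiP, was at 57006 ± 13188 in iCreb5 and 59062 ± 9950 in tdTomato, and Sar1a, a GTPase of COPII vesicles, at 14113 ± 1181 in iCreb5 and 16260 ± 950.2 in tdTomato.

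**Figure D4:**
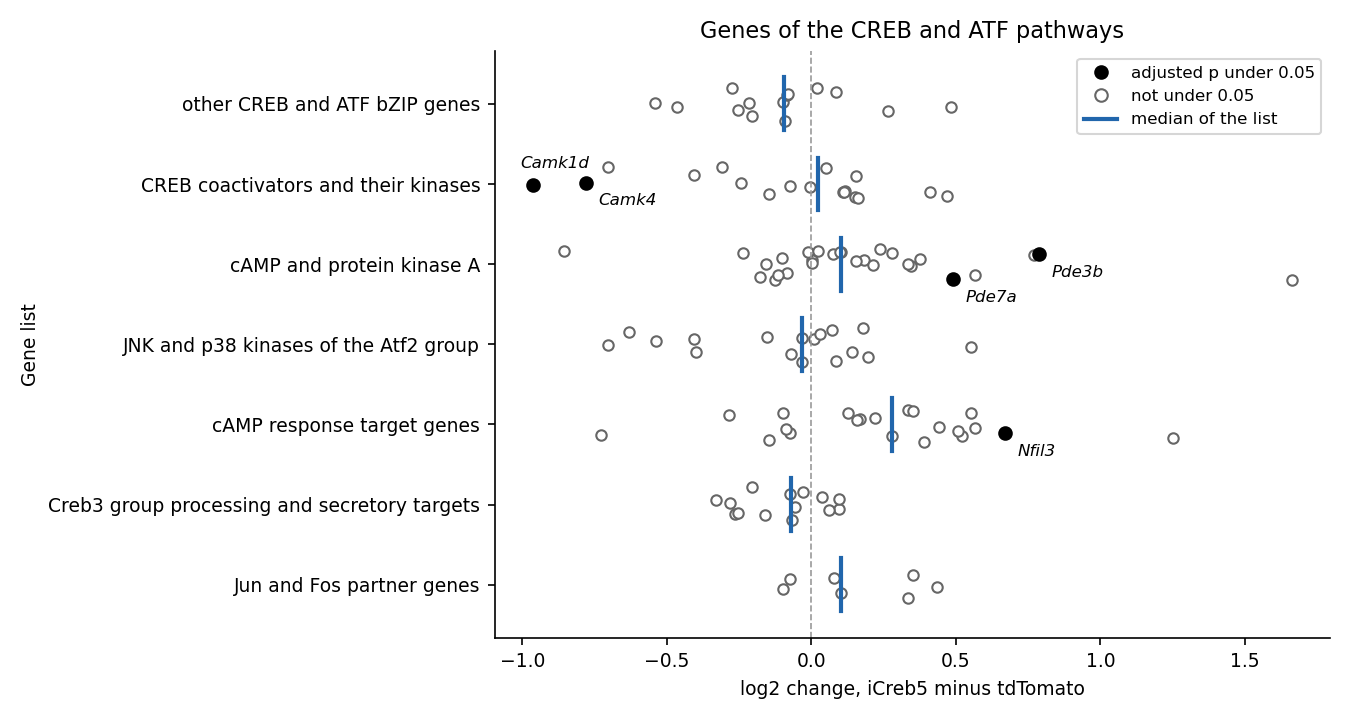
Log2 change, iCreb5 minus tdTomato (horizontal axis), of every tested gene in the 7 lists, a point per gene, with the median of each list as a bar and genes past an adjusted p of 0.05 named. Camk4 and Camk1d are lower, Pde3b, Pde7a and Nfil3 are higher, and the list medians lie between -0.09 and 0.28.

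Among the 16733 genes tested, leaving out the 10 members, Resf1, Gm13563 and Gata2 had the highest likeness to Creb5 from library to library. They are the top of a long ranking, so their high values follow in part from the choice. Whether these values exceed chance was not tested. Likeness was the Pearson r of log2(value + 1) over 12 libraries after centring within each group, and it describes libraries that share litters and depth. Resf1, a gene that silences retroelements in mouse stem cells, had r = 0.91 (Spearman rho 0.90), and 0.89 without the 2 libraries farthest from the median of Creb5. Its own level did not pass the test, at 1559 ± 109 in iCreb5 and 1732 ± 221 in tdTomato. The predicted gene Gm13563 had r = 0.87 (rho 0.85, 0.82 without the 2 libraries) at a level of 15.1 ± 3.78 in iCreb5 and 16.0 ± 4.89 in tdTomato, close to the value of a few reads. Gata2, a zinc finger factor of blood and endothelial cells, had r = 0.87 (rho 0.87, 0.72 without the 2 libraries). Gata2 was at 487 ± 55.0 in iCreb5 and 293 ± 105 in tdTomato, a log2 change of 0.81 ± 0.22 (SE; adjusted p 0.0335 by limma). In litter 3 alone the change was 1.09 (adjusted p 0.0700 by limma) and in litters 4 to 6 it was 0.53 (0.165), with a call in neither. The Gata2 call was lost without any 1 of iCreb5 3a, 3c, 4a or 6 or of tdTomato 3b or 3c, with adjusted p by limma between 0.0562 and 0.0747. Endothelial markers moved with the groups in the same direction, and their part in the Gata2 value was not tested. Among the relatives, Atf2 had the highest r with Creb5, 0.47 (rho 0.39), but it hardly stood apart. Atf1 had r = 0.45 (rho 0.24) and Creb3l2 had r = 0.37 (rho 0.38).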

How the data were processed

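Sorted E14.5 limb cells gave 12 libraries of polyA RNA, 6 iCreb5 and 6 tdTomato, grouped by title, source and litter label. The authors deposited normalised signal per gene: gene counts divided by a size factor per library, as the values show, since 100% were whole multiples of 1 read (tolerance 1e-06). Per the submitters' processing notes, FastQC, STAR, Salmon, DESeq2 and mm10 were used, with no versions or roles. A table of stage P0 was not used, because its 8 columns correspond to no sample in the labels.

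The comparison of groups used R 4.3.3 and limma 3.58.1, as a two-sided test on log2(value + 1) with lmFit and trended eBayes and no covariates, for the 16733 genes at 10 or more in at least 6 libraries. Benjamini-Hochberg adjusted p under 0.05 over all of them was a call. Fold changes are on this log2 scale, which understates low genes. The spread behind each p-value is that between libraries, 3 of each group from a shared litter. The script was tested on simulated data. Symbols and coordinates came from GENCODE M21 and promoter windows from RefSeq. Lengths were the longest coding transcript or all exons. The plan held an exact permutation test of the Creb5 share, which was replaced by a description.

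Litter labels pair the libraries, and deviations from group means correlated at 0.13 in litter 3, 0.15 in litter 4, 0.35 in litter 5 and 0.00 in litter 6. Alternatives were a litter block, litter 3 or litters 4 to 6 alone, edgeR 4.0.16 and DESeq2 1.42.0 on recovered reads, other pseudocounts, filters and scalings, and leaving out libraries. tdTomato 3a and 5b, and iCreb5 5 and 6, were also left out as pairs. Members and lists were chosen with earlier results of these data known. Named genes were the 10 members, up to 4 called genes and the 2 most abundant uncalled genes of each list, and the 3 genes most like Creb5.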

Additional observations from a re-analysis of the deposited data

Results flagged for a closer look

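Of 68 groups of 6 libraries examined, 3 had a library farther from its neighbours than the range of the group allows at Dixon's 95% level, and chance alone marks about 1 in 20 groups. Atf2 was at 2657 in iCreb5 3c, above the other iCreb5 libraries. Resf1 was at 1761 and Gm13563 at 22.6 in iCreb5 4a, the library in which Creb5 was also highest (3162). Both genes were picked for their likeness to Creb5, so a high value in that library follows from the choice.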

How the results depend on the processing

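Litter as a replicate block left the Creb5 log2 change at 0.65 with an adjusted p of 0.000983 by limma and gave 1587 calls over all genes against 1125 without it. The block ended no call and made none among the 10 genes. Of 27 alternatives, Creb5 missed the threshold in 1, litters 4 to 6 alone (0.52). Without tdTomato 3a and 5b, 2 of the 10 genes were called in place of 1. Over all genes, 687 were called in litter 3 alone and 688 in litters 4 to 6 alone, with fewer libraries. Equal totals moved the median of all genes by 0.07 on the log2 scale and TMM factors by 0.00.

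Signs turned only for changes that were not called, the largest of them Fos (0.33) and Crem (0.30). Creb1 was 0.034 with equal totals, 0.46 in litter 3, 0.047 with edgeR, 0.043 with DESeq2, 0.18 without iCreb5 5 and 6, and -0.15 to 0.10 on leaving out 1 library. In litter 3, Crem was -0.022, Camk1 -0.023, Map2k3 -0.14, Egr1 -0.18, Fos -0.19 and Gm13563 0.051. In litters 4 to 6, Crebbp was -0.021, Camk2d -0.0049, Prkar1a -0.052 and Hspa5 0.056. Prkar1a was -0.025 with the block and litter 3 averaged and -0.0018 with DESeq2. With equal totals Hspa5 was 0.0017 and Gm13563 0.0040. Without iCreb5 5 and 6, Map2k3 was -0.038, Egr1 -0.051, Fos -0.17, Jun -0.023 and Gm13563 0.0097, and without tdTomato 3a and 5b, Map2k3 was -0.073 and Gm13563 0.017. The block with litter 3 averaged ended the Pde3b and Gata2 calls (adjusted p 0.0513 and 0.0573 by limma) and made a Dusp1 call (0.0411). Testing without a filter and without a trend each ended the calls of Camk1d (0.0693, 0.0647), Pde7a (0.0550, 0.0600), Nfil3 (0.0736, 0.0822) and Gata2 (0.0555, 0.0568), and equal totals ended that of Camk1d (0.0582). Leaving out 1 library gave Atf2 -0.0034 to 0.10, Crebbp -0.013 to 0.13, Camk2d -0.013 to 0.097, Prkar1a -0.019 to 0.017, Map2k3 -0.044 to 0.047, Hspa5 -0.15 to 0.018 and Gm13563 -0.19 to 0.050. The cause was not tested.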
